A study of Mus musculus with 8 samples.

Results

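The transcripts described here are Hk1, Aldoa, Gys1 and Glud1, 4 enzymes of glucose, glycogen and glutamate metabolism among the 5822 genes that the probe annotation names by a single symbol. They were chosen by gene symbol, with earlier results of these data known, and each was read by 1 array feature. RNA came from cortical astrocytes cultured from newborn Cx43 KO mice, which are null for connexin43, and from newborn C57BL/6j WT mice, with 4 arrays per genotype. The strain background of the Cx43 KO mice is not given in the labels used here. On each 2-colour array the astrocyte RNA was hybridised together with a common reference, a pool of tissues from adult C57BL/6j mice of both sexes that itself contained brain. The labels number the arrays 1 to 4 within each genotype and assign each number to 1 lot batch, so every lot batch held 1 Cx43 KO and 1 WT array. The title of Cx43 KO 3 names only Cx43 and not KO. No label says whether the arrays stand for separate cultures or animals, and p-values therefore measure only the spread between these arrays, which may be technical.

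Astrocytes take up glucose, phosphorylate it, and either store it as glycogen or pass it through glycolysis. Connexin43 forms most of the gap junction channels between astrocytes, and glucose, lactate, glutamate and glutamine can diffuse through such channels from cell to cell. Hk1 encodes hexokinase 1, which traps glucose in the cell as glucose phosphate. Aldoa encodes aldolase A, the glycolytic enzyme that splits fructose bisphosphate into triose phosphates. Gys1 encodes the glycogen synthase of muscle and brain, and glycogen in the adult brain is held mainly in astrocytes. Glud1 encodes the mitochondrial glutamate dehydrogenase, through which astrocytes convert glutamate taken up from synapses into a tricarboxylic acid cycle intermediate.

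Each value is a log ratio of astrocytes over the tissue pool, read as log2 and centred on the median of its array. An exact 0 was read as a missing ratio. The arrays carried ratios for 36.6% to 57.6% of 9568 features. The direction is not stated in the labels and is given as likely, from levels averaged over the 2 genotype means. By these levels all 7 tested astrocyte markers lay above the pool (median 1.16, lowest 0.11 in Aldoc). Only 1 of 9 tested genes of other adult tissues did (median -1.35). Not every marker was above the pool in each genotype, as the Cx43 KO mean of Aldoc was -0.06. Of the astrocyte markers, the glutamate transporter Slc1a2 had a ratio on 0 arrays, and the glutamine synthetase Glul on 2 Cx43 KO arrays and 1 WT array. Gja1, the gene of connexin43, is named by 0 features, so the deleted transcript could not be checked. Because the samples are bulk RNA, a lower share of a cell type and less RNA per cell cannot be told apart. The number of arrays limits the precision.

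The 4 enzymes differed widely in their position against the tissue pool. Glud1 lay above the pool on all 7 arrays that carried a ratio. Its mean log2 ratio was 1.74 ± 0.37 (SD, n = 4) in Cx43 KO astrocytes and 1.22 ± 0.44 (SD, n = 3) in WT astrocytes, or 3.33 and 2.33 times the pool. Hk1 lay below the pool on all 8 arrays, at -1.32 ± 0.27 (SD, n = 4) in Cx43 KO and -1.76 ± 0.41 (SD, n = 4) in WT, which is 40.0% and 29.5% of the pool. Among 2163 named genes with 8 values, 25.8% lay above the pool on every array and 25.2% below it on every array. The level of Hk1 exceeded that of 3.74% of these genes and the level of Glud1 that of 96.2%. If the ratios run the other way, Hk1 stood at 2.50 and 3.39 times the pool in Cx43 KO and WT, above 96.2% of these genes, and Glud1 at 30.0% and 42.9%, above 3.79%.

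Aldoa and Gys1 stood close to the pool and close to each other. Aldoa averaged -0.05 ± 0.41 (SD, n = 4) in Cx43 KO and -0.48 ± 0.20 (SD, n = 4) in WT, and was above the pool on 1 of 8 arrays. Gys1 averaged -0.01 ± 0.59 (SD, n = 4) in Cx43 KO and -0.42 ± 0.36 (SD, n = 4) in WT, and was above the pool on 2 of 8 arrays. Over both genotypes the order was Glud1 (1.48), Gys1 (-0.22), Aldoa (-0.26) and Hk1 (-1.54), in which Gys1 and Aldoa differed by less than the spread between arrays of 1 genotype. With the sign turned the order is reversed, from Hk1 (1.54) down to Glud1 (-1.48), and every Cx43 KO minus WT difference changes sign. The order is one of astrocytes relative to the pool, which includes brain, heart and liver, and not one of transcript abundance. Centring lowered the arrays by 0.09 to 0.32, and without it the means of Gys1 and Aldoa were 0.00168 and -0.05, so the side of the pool on which Gys1 lies is not settled.

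**Figure D1:**
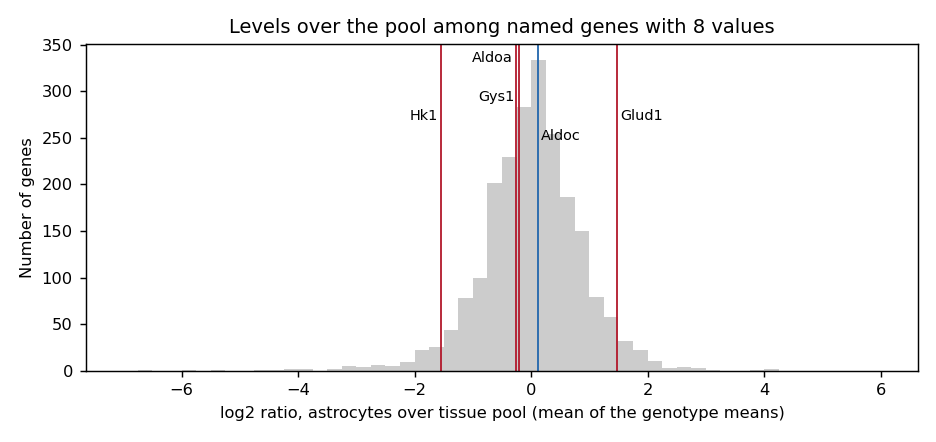
Histogram of the mean log2 ratio of astrocytes over the tissue pool (x axis, mean of the Cx43 KO and WT means) for 2163 named genes with 8 values (y axis, number of genes). Vertical lines mark the 4 enzymes (red, Glud1 from 7 values) and the aldolase paralog Aldoc (blue): Hk1 at -1.54 stands in the lower tail, Glud1 at 1.48 in the upper tail, and Aldoa, Gys1 and Aldoc near the middle.

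The comparison of genotypes asks whether astrocytes that lack connexin43 carry different amounts of these transcripts. In all 4 genes the Cx43 KO mean was higher than the WT mean, by 1.32 to 1.43 times, but 0 of 4 passed the test (limma, Benjamini-Hochberg adjusted p over 3505 genes and unnamed features of 0.696 to 0.778). The share of all 3505 that passed was 0.0%, and 7.5% had an unadjusted p under 0.05, which 0 of these 4 reached. A Cx43 KO mean above the WT mean was seen in 52.6% of all features tested. The median difference of the 4 enzymes was 0.44 on the log2 scale, and that of all features tested 0.02. Because the 4 were chosen with earlier results of these data known, their shared direction and this contrast are description only.

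Hk1, at the entry of glucose into metabolism, had log2 ratios of -1.51, -1.51, -0.93 and -1.33 on Cx43 KO 1 to 4, against -2.09, -1.39, -2.13 and -1.43 on WT 1 to 4. Cx43 KO 3 was the highest array and WT 1 and WT 3 were the lowest, while WT 2 and WT 4 lay among the Cx43 KO values, so the groups overlapped. The difference was 0.44 (SE 0.23, 95% interval -0.08 to 0.96, limma adjusted p = 0.696). By lot batch it was 0.58, -0.13, 1.20 and 0.10 for numbers 1 to 4. Lot batch 3 held the widest gap, and without its 2 arrays the difference was 0.19. Quantile and scale normalization gave 0.66 and 0.70.

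Aldoa, further along glycolysis, had log2 ratios of -0.27, -0.40, -0.06 and 0.53 on Cx43 KO 1 to 4, against -0.54, -0.45, -0.70 and -0.23 on WT 1 to 4. Cx43 KO 4 was the highest of all arrays, and 3 of 4 WT arrays lay below every Cx43 KO array, while WT 4 lay among the Cx43 KO values. The difference was 0.43 (SE 0.22, 95% interval -0.07 to 0.93, limma adjusted p = 0.696). Aldoa was the only one of the 4 enzymes with a higher value in Cx43 KO on all 4 lot batches, by 0.27, 0.06, 0.64 and 0.76. Of 2596 genes and features with 8 values, 7.2% were higher in Cx43 KO on all 4 lot batches. Without Cx43 KO 4 the difference was 0.24.

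The other brain aldolase on the array, Aldoc, is the form typical of astrocytes and did not share this pattern. Its log2 ratios were 0.38, -0.19, 0.64 and -1.07 on Cx43 KO 1 to 4, against -0.08, 0.29, 0.07 and 0.88 on WT 1 to 4. Cx43 KO 4 was its lowest array and the highest array of Aldoa. The difference of Aldoc was -0.35 (SE 0.36, limma adjusted p = 0.836), -0.01 without Cx43 KO 4 and 0.19 without lot batch 4. The difference between the paralogs was not tested.

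Gys1, the glycogen synthase, had log2 ratios of 0.33, -0.82, -0.07 and 0.50 on Cx43 KO 1 to 4, against -0.04, -0.58, -0.84 and -0.21 on WT 1 to 4. The Cx43 KO values spanned nearly the whole WT range, with the highest 2 arrays and the next to lowest one in Cx43 KO. The difference was 0.40 (SE 0.30, 95% interval -0.26 to 1.06, limma adjusted p = 0.778). By lot batch it was 0.37, -0.23, 0.77 and 0.70. It was 0.67 without Cx43 KO 2, 0.23 without Cx43 KO 4 and 0.26 without WT 3. Gys2, the liver glycogen synthase, had a ratio on 0 arrays.

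Glud1, the glutamate dehydrogenase, had log2 ratios of 1.99, 1.90, 1.86 and 1.19 on Cx43 KO 1 to 4, against 0.79, 1.21 and 1.66 on WT 1, 3 and 4, with an exact 0 on WT 2. Cx43 KO 1 to 3 lay above every WT array, and Cx43 KO 4 lay within the WT range. The difference was 0.52 (SE 0.28, 95% interval -0.10 to 1.13, limma adjusted p = 0.706). By lot batch it was 1.21, 0.65 and -0.48 for numbers 1, 3 and 4. With 2 values per genotype allowed, it was 0.30 without WT 1. When the exact 0 of WT 2 was kept as a ratio of 0, the difference was 0.90 and did not pass in limma either. Quantile and scale normalization gave 0.32 and 0.33.

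**Figure D2:**
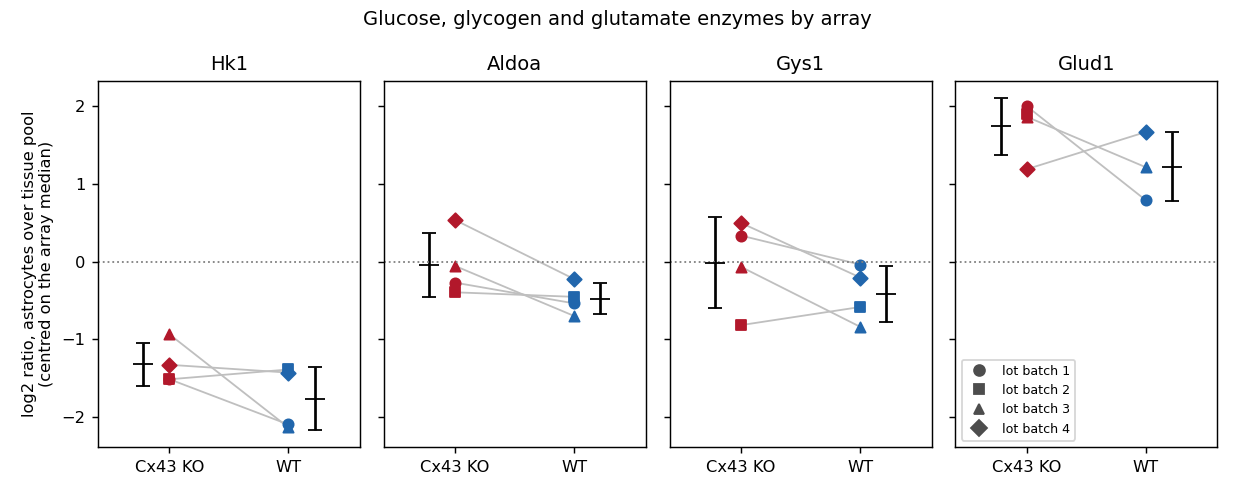
Log2 ratios of astrocytes over the tissue pool (y axis) for Hk1, Aldoa, Gys1 and Glud1 on each Cx43 KO (red) and WT (blue) array. Symbols give the lot batch, grey lines join the 2 arrays of a lot batch, and black bars show the mean ± SD; the genotypes overlap in every panel, with Cx43 KO 4 highest in Aldoa and lowest of its genotype in Glud1.

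**Figure D3:**
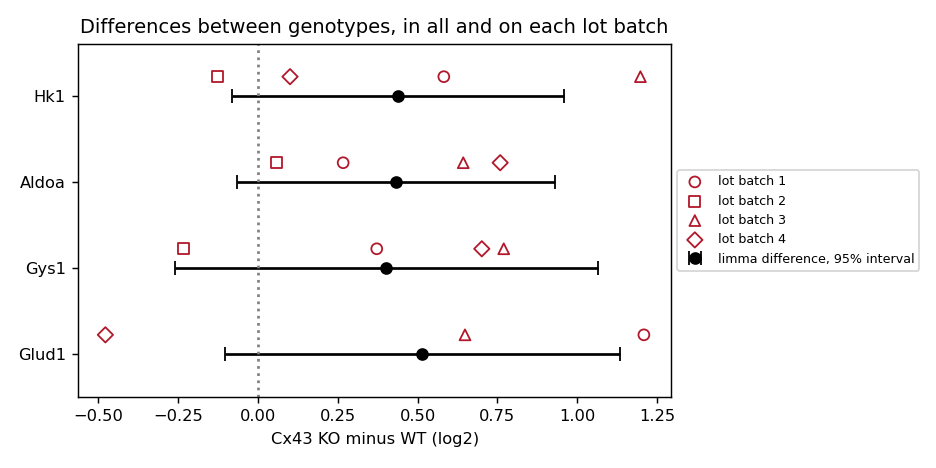
Cx43 KO minus WT differences (x axis, log2) of the 4 enzymes, with limma's difference and 95% interval (black) and the difference on each lot batch (open red symbols). All 4 intervals contain 0, the lot batch differences of Aldoa all lie above 0, and 1 lot batch lies below 0 in each of the other 3 genes.

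Over all tested genes, 2.43% had every Cx43 KO array above every WT array, and 0 of these 4 enzymes did. Two-sided exact permutation tests over the arrays gave unadjusted p = 0.229 for Hk1, 0.0857 for Aldoa, 0.314 for Gys1 and 0.171 for Glud1, where the design allows 0.0286 at the lowest. The genotypes were reversed on the same lot batch in Hk1 and Gys1 and on another in Glud1. Glud1 had no WT ratio on lot batch 2. Lot batch 2 had the lower Cx43 KO value in Hk1 and Gys1, where the gap was 0.13 and 0.23, and lot batch 4 had it in Glud1, where the gap was 0.48. Across arrays the values of Aldoa and Gys1 had a Pearson r of 0.73 and a Spearman rho of 0.62 over 8 arrays, and those of Hk1 and Aldoa an r of 0.64 and a rho of 0.83. Hk1 with Glud1 had an r of 0.66 but a rho of 0.21 over 7 arrays. Glud1 had an r of 0.09 with Aldoa and -0.06 with Gys1 over 7 arrays. These correlations describe arrays that share the same reference pool and the same 2 genotypes.

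Cx43 KO 4, which had the highest Aldoa and Gys1 ratios and the lowest Glud1 ratio of its genotype, also stood apart in cell type markers. Cx43 KO 4 had a mean of 0.26 over 5 astrocyte markers and the other Cx43 KO arrays 1.44 to 1.52, against 1.27 to 1.68 on the WT arrays. Over 7 microglia and macrophage markers the mean was 1.79 for Cx43 KO 4 and -0.04 to 0.77 for the other Cx43 KO arrays, against 0.31 to 0.97 on the WT arrays. All of the 7 but Lgmn were highest of their genotype on Cx43 KO 4, where Lgmn was lowest (0.68). Tyrobp (1.06) and Ctsz (-0.12) on that array lay below at least 1 WT array. Of the 14 such markers on the array 8 were tested, and Fcer1g, Ctss, Ptprc and Coro1a had a ratio on 0 arrays. Over 6 fibroblast, meningeal and mural markers the mean was 1.98 for Cx43 KO 4 and -0.67 to 0.09 for the other Cx43 KO arrays, against 0.33 to 1.35 on the WT arrays, with 9 of 11 such markers tested. Each of the 6 was highest of its genotype on Cx43 KO 4, by the most in Col3a1 (3.67, others -3.98 to -0.21). Fmod, outside the mean for lack of a WT 2 ratio, was lowest of its genotype there (2.95). Over 3 neuron markers the mean was -1.88 for Cx43 KO 4 and -0.60 to -0.17 for the other Cx43 KO arrays, against -1.10 to -0.19 on the WT arrays, with 4 of 8 such markers tested. The neuron markers did not agree. Map2 (-2.54) and Uchl1 (-1.08) were lowest of all arrays on Cx43 KO 4, while Nefm (-2.01) lay above WT 1 (-2.73). Rbfox3, outside the mean for lack of a WT 2 ratio, was highest on Cx43 KO 4 (-1.13). The part of these cells in the ratios of the 4 enzymes was not tested. Without Cx43 KO 4 the differences were 0.44 for Hk1, 0.24 for Aldoa, 0.23 for Gys1 and 0.70 for Glud1, with limma adjusted p from 0.314 to 0.765. Without Cx43 KO 3, the array whose title lacks the word KO, they were 0.31, 0.43, 0.42 and 0.47.

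**Figure D4:**
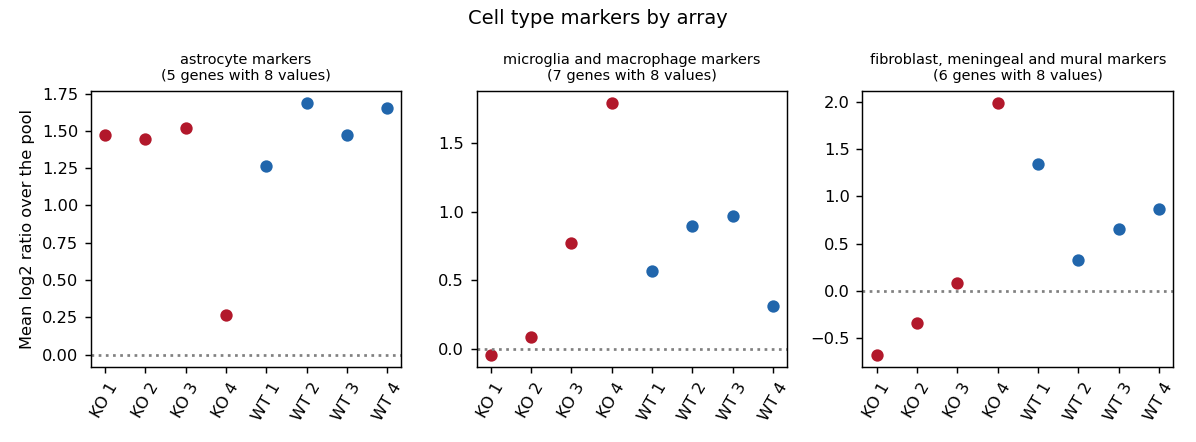
Mean log2 ratio over the pool (y axis) of astrocyte, microglia and macrophage, and fibroblast, meningeal and mural markers with 8 values, by array (red Cx43 KO, blue WT). Cx43 KO 4 lies lowest in the astrocyte markers at 0.26 and highest in the other lists at 1.79 and 1.98.

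The genes whose ratios over the arrays were most like those of each enzyme were named as a description. For Hk1 they were Pcyt1a (r = 0.96), an enzyme of phosphatidylcholine synthesis, the ubiquitin ligase Smurf2 (r = 0.95) and Klhdc3 (r = 0.92). For Aldoa they were the cytoskeletal scaffold Iqgap1 (r = 0.99) and the ubiquitin ligases Rnf114 (r = 0.97) and Trip12 (r = 0.96). For Gys1 they were the kinase Clk3 (r = 0.95), Tmem184b (r = 0.94) and the bone morphogenetic protein co-receptor Rgmb (r = 0.92). For Glud1 they were the lysosomal thioesterase Ppt1 (r = 0.99), the glia maturation factor Gmfb (r = 0.97) and the inositol phosphatase Inpp5k (r = 0.96). The values are Pearson correlations over 8 arrays among 2162 genes, or over 7 arrays among 2163 for Glud1, and such high values are easily found among so many genes on so few arrays. The Cx43 KO minus WT differences of these 12 genes ran from 0.18 in Inpp5k to 0.59 in Iqgap1, and 0 of them passed (limma). Inpp5k turned to -0.15 without lot batch 1 and Tmem184b to -0.032 without lot batch 3, and Iqgap1 was 0.34 without Cx43 KO 4.

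With these enzymes counted in, 49 genes of 7 metabolic lists were tested. Of these, 32 had a higher mean in Cx43 KO, 0 passed and 5 had an unadjusted p under 0.05. All 4 enzymes are among the 32. They are also counted among the higher genes of the glycolysis, glycogen and glutamate lists, which raises those counts. Over all features tested 52.6% had a higher mean and 7.5% such a p, and counts of this size over single lists of 5 to 9 genes are given as description only. The lists were also chosen with earlier results of these data known. In glucose uptake and glycolysis 5 of 7 were higher, with a median of 0.14, 0.06 with array weights and 0.25 without lot batch 4. Slc2a12, a facilitative glucose transporter, had the smallest p of that list. Its log2 ratios were -0.57, -0.82, -1.37 and -1.10 on Cx43 KO 1 to 4, against -0.20, -0.11, 0.05 and -0.04 on WT 1 to 4, so every Cx43 KO array lay below every WT array. The difference was -0.89 (SE 0.20, limma adjusted p = 0.449). It thus lay on the other side of 0 from the glycolytic enzymes Hk1 and Aldoa. As Slc2a12 was named for its small p, its separation of the genotypes is description only. The share of all features with every Cx43 KO array below every WT array was not counted. The glucose transporter Slc2a1 had a ratio on 0 arrays, and the glycolytic regulator Pfkfb3 on 3 Cx43 KO and 2 WT arrays.

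Glycogen metabolism had 6 of 8 tested genes higher, with a median of 0.19, 0.04 without lot batch 3 and 0.32 without lot batch 4. The smallest p belonged to Gbe1, the branching enzyme that acts on the chains glycogen synthase extends, followed by Gys1 and by Ppp1r3e, a subunit that targets protein phosphatase to glycogen. Gbe1 differed by 0.32 (SE 0.22), with 0.17 without lot batch 1 and 0.54 without lot batch 3, and Ppp1r3e by 0.22 (SE 0.17), with 0.10 without lot batch 1. None of the 8 passed.

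Lactate and pyruvate handling had 4 of 8 tested genes higher, with a median of 0.08, or -0.08 without lot batch 1. Pcx, the pyruvate carboxylase that lets astrocytes replenish the tricarboxylic acid cycle, had log2 ratios of 1.99, 1.76, 1.14 and 0.02 on Cx43 KO 1 to 4, against -0.11, 0.41, -0.10 and 0.46 on WT 1 to 4. Cx43 KO 1 to 3 lay above every WT array and Cx43 KO 4 within the WT range, as in Glud1. The difference was 1.06 (SE 0.38, limma adjusted p = 0.655), and 1.46 without Cx43 KO 4 (limma adjusted p = 0.0641). It was 0.72 without lot batch 1 (limma adjusted p = 0.844) and 0.81 without Cx43 KO 1 (limma adjusted p = 0.777). Pdhx, a component of the pyruvate dehydrogenase complex, differed by -0.41 (SE 0.22), and by -0.14 without lot batch 3. The pyruvate dehydrogenase kinase Pdk2 differed by 0.26 (SE 0.21), by 0.04 without lot batch 1, by 0.40 without lot batch 4 and by 0.03 for 1 of its features.

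Glutamate and glutamine metabolism had 6 of 8 tested genes higher, with a median of 0.19. That median was 0.01 without lot batch 4 and 0.29 with each exact 0 kept. Psat1, an aminotransferase of serine synthesis that consumes glutamate, was lower in Cx43 KO on all 4 lot batches. It differed by -0.58 (SE 0.26, limma adjusted p = 0.666), and by -0.39 without Cx43 KO 4. Pdhx and the isocitrate dehydrogenase subunit Idh3a, of other lists, were also lower on all 4 lot batches. How often features were lower on all 4 lot batches was not counted over all features. Gclm, a subunit of the enzyme that starts glutathione synthesis from glutamate, differed by 0.27 (SE 0.22), by 0.09 and 0.08 after quantile and scale normalization, and by up to 0.45, without lot batch 3.

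Of 9 tricarboxylic acid cycle genes and close partners, 5 were higher, with a median of 0.11. That median was 0.01 without lot batch 2 and 0.29 after scale normalization. Acly, which turns exported citrate into acetyl-CoA, differed by 0.54 (SE 0.20, limma adjusted p = 0.655). It was higher on all 4 lot batches, as were Idh3b of the same list (difference 0.17) and 7.2% of genes and features with 8 values. The citrate synthase Cs differed by 0.25 (SE 0.16) and the isocitrate dehydrogenase subunit Idh3a by -0.20 (SE 0.18), with values from -0.47 to -0.09 in other fits. Side routes of glucose had 3 of 5 higher, with a median of 0.13, or -0.15 over the 4 genes tested without Cx43 KO 4. There Ugdh, which oxidises UDP-glucose, differed by -0.59 (SE 0.27) and was lower on all 4 lot batches. The difference of Ugdh was -0.29 without lot batch 4. For Ugdh too, the share of all features lower on all 4 lot batches was not counted. The pentose phosphate enzyme Pgd differed by 0.47 (SE 0.34, 3 Cx43 KO arrays), but by 0.02 with its exact 0 kept. After quantile normalization the difference of Pgd was 0.22. Without Cx43 KO 4, Pgd was not tested at 3 values per genotype. With 2 values per genotype allowed, it differed by 0.03 there, from 2 Cx43 KO arrays. The hexosamine enzyme Gfpt1 differed by 0.24 (SE 0.23), with 0.12 without lot batch 4 or Cx43 KO 4 and 0.40 without WT 1. Of 5 hypoxia-responsive genes, among which glycolytic genes are usually counted, 4 were higher, with a median of 0.18, 0.50 without lot batch 4 and -0.024 without lot batch 1. Hmox1, the heme oxygenase of the stress response, had log2 ratios of 2.14, 2.23, 2.18 and 3.92 on Cx43 KO 1 to 4, against 1.00, 1.51, 1.33 and 0.91 on WT 1 to 4. Every Cx43 KO array lay above every WT array, as in 2.43% of all genes and features tested, and Cx43 KO 4 was the highest. The difference of Hmox1 was 1.43 (SE 0.38, limma adjusted p = 0.471), and 0.90 without lot batch 4. The mitophagy receptor Bnip3 differed by 0.65 (SE 0.30), with 0.39 without lot batch 1 and 1.00 without lot batch 3. Mxi1, a Max-binding repressor, differed by -0.23 (SE 0.17), and by -0.10 without lot batch 4.

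**Figure D5:**
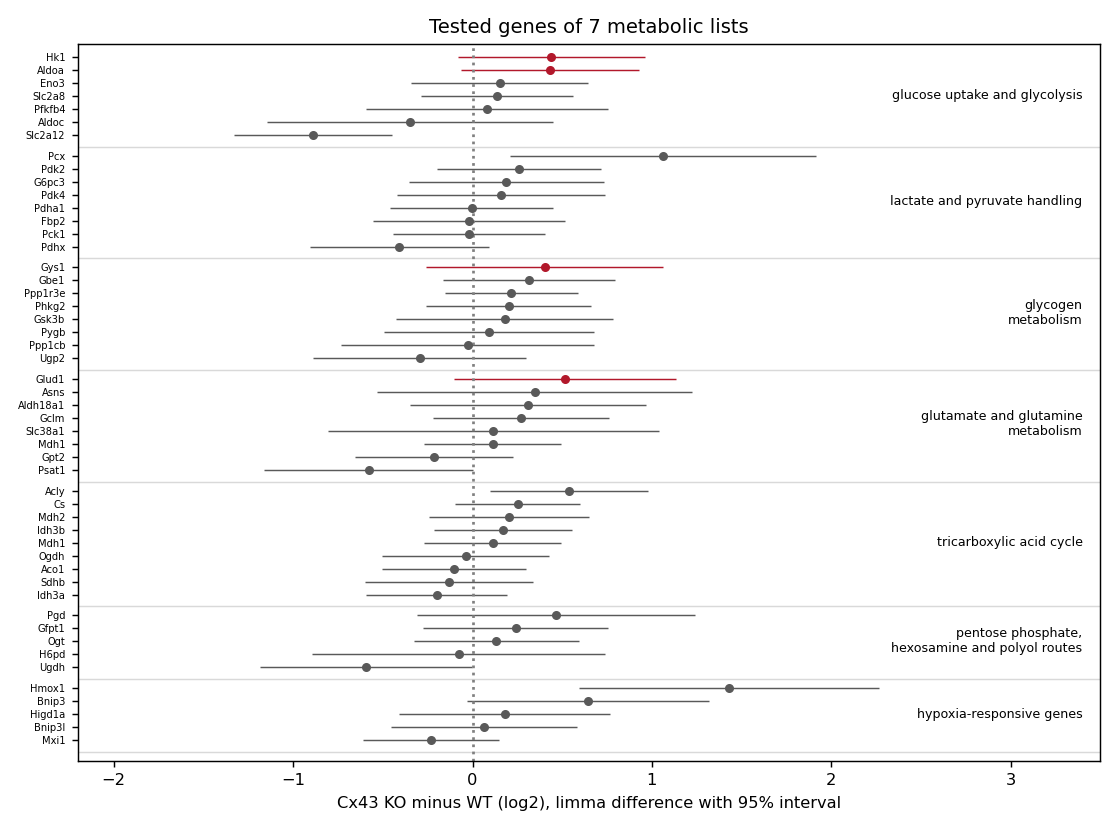
Cx43 KO minus WT differences (x axis, log2) with limma's 95% intervals for the tested genes of 7 metabolic lists, ordered by difference within each list; Mdh1 stands in 2 lists. The 4 enzymes are red and lie highest in their lists, with intervals that contain 0. Enzymes and lists were chosen with earlier results of these data known, so this position is description only.

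Hk1 lies on chromosome 10 at chr10:62268855-62379920 (GRCm38.p6), 5.88 Mb beyond Gja1 on the same chromosome, at chr10:56377300-56390419. Aldoa lies at chr7:126795234-126800994, Gys1 at chr7:45434839-45456617 and Glud1 at chr14:34310727-34345033. RefSeq promoter windows (GRCm38.p6, 250 bases before to 50 after a start) were searched on both strands for ACGTG or GCGTG. These are the core letters bound by hypoxia-inducible factors, which act on many glycolytic genes. A part of these factors in the differences between genotypes was not tested. For each gene the start furthest downstream was taken, of 2 listed for Hk1 and 3 for Aldoa. Which start is used in these cells was not measured. The 3 windows that hold the letters are printed 5′ to 3′ with matches in capitals, at chr10:62340372-62340671 (minus strand) for Hk1, chr7:126799129-126799428 (minus strand) for Aldoa and chr14:34310477-34310776 (plus strand) for Glud1.
Hk1: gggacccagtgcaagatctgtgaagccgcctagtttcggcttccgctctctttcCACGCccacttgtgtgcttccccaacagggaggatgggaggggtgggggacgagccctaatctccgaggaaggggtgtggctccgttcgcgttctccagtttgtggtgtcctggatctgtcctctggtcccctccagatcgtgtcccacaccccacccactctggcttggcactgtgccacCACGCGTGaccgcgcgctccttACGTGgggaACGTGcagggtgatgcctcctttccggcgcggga
Aldoa: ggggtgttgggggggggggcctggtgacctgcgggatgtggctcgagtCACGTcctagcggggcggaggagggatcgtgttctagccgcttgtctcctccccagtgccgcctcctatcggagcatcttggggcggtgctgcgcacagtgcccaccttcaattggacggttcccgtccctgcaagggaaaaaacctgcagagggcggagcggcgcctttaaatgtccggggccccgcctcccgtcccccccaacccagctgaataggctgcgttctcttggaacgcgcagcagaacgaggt
Glud1: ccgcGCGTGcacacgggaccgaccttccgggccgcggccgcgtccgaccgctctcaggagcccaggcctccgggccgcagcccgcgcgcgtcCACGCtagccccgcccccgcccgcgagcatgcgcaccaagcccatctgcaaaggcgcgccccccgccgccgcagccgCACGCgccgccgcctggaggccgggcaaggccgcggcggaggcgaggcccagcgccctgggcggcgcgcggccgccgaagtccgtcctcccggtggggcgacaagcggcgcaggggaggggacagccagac

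The Hk1 window held 5 matches, of which 2 overlap, the Glud1 window 3 and the Aldoa window 1, while the Gys1 window held 0. The upstream windows gave 0 matches for Hk1 and, for Aldoa, 0 in the one furthest upstream. The same letters occur in 43.8% of the 32851 windows of that length in the table. The GC box GGGCGG, also on both strands, occurred 3 times each in the Aldoa, Gys1 and Glud1 windows and 0 times in that of Hk1, against 35.7% of all windows with at least 1. The E-box CACGTG, whose letters contain ACGTG, and the core TGACG of cyclic AMP response elements occurred in 0 of the 4 windows, against 7.15% and 20.8% of all windows. The 4 windows had a GC content of 60.3% to 81.0%, above the median of 52.7% over all windows. These motifs were chosen with the sequences known, and a match describes the letters only.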

How the data were processed

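The authors deposited 1 value per feature on each of the 8 arrays, read here as log2 ratios from their signs and range. The log base, dyes, scanner, background correction and normalization were not stated in the labels or files. Another base would rescale every difference by 1 factor. Features were named from the platform annotation; features of a gene were averaged, and those with several symbols or none were tested unnamed. The median of the non-zero ratios was subtracted from every array. Genes with at least 3 values per genotype were fitted across all features with limma 3.58.1 (lmFit, eBayes, R 4.3.3), two-sided, at a Benjamini-Hochberg adjusted p of 0.05. The fit was tested on simulated data. Differences are Cx43 KO minus WT. The members, gene lists and named genes (the 3 smallest p per metabolic list, paralogs, the 3 most correlated genes per member) were chosen with earlier results of these data known. The lot batch in the labels pairs same-numbered arrays; their deviations from the genotype means correlated at r = -0.18, 0.19, -0.13 and -0.19 across 2596 genes and features.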

Additional observations from a re-analysis of the deposited data

Results flagged for a closer look

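In 7 of 92 groups of 4 arrays examined, 1 array lay far from the other 3, where chance alone marks about 5% of independent groups. These groups are not independent, because Gmfb, Rnf114 and Tmem184b were named for their correlation with a member. The count can therefore not be weighed against that rate. Glud1 was 1.19 on Cx43 KO 4, against 1.86 to 1.99 on the other Cx43 KO arrays. On the same array Gmfb was 1.16 (others 1.83 to 1.87), Hmox1 was 3.92 (others 2.14 to 2.23), the mean of astrocyte markers was 0.26 (others 1.44 to 1.52) and the only oligodendrocyte lineage marker with 8 values, Cnp, was -1.53 (others -0.06 to 0.13). Rnf114 was -0.15 on WT 4 (others -0.50 to -0.45), and Tmem184b was -1.21 on Cx43 KO 2 (others -0.07 to 0.11).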

How the results depend on the processing

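The Cx43 KO minus WT differences of Hk1, Aldoa, Gys1 and Glud1 stayed above 0 and did not pass in each of the 22 or 23 other fits that gave a value, with adjusted p from 0.25 to 0.995. Leaving out 1 array gave 0.31 to 0.56 for Hk1, 0.24 to 0.55 for Aldoa, 0.23 to 0.67 for Gys1 and 0.43 to 0.70 for Glud1, which had no value in the fits without WT 1, 3 or 4 at 3 values per genotype. Fits with 2 values per genotype, added after seeing the data, gave Glud1 0.30 to 0.74. A paired fit (replicate block on the lot batch) gave 0.44, 0.43, 0.40 and 0.46, called 0 genes, and changed no call; 196 features then had an unadjusted p under 0.05. Over all features limma called 0, with 263 at an unadjusted p under 0.05 (135 higher, 128 lower). Leaving out 1 array gave 0 to 4 calls, 4 without Cx43 KO 4 and 1 without WT 2, and 140 to 384 features at the unadjusted p, with 140 without WT 3, 169 without WT 1 and 174 without Cx43 KO 3. The split moved to 49 higher and 91 lower without WT 3 and to 35 higher and 67 lower without lot batch 3. The unadjusted count was 471 with array weights, 142, 161, 102 and 427 without lot batches 1 to 4, and, at 2 values per genotype, 194 to 458 when leaving out 1 array, with 0 to 1 calls. Leaving arrays out also changed which features were tested. Reversed differences were those of Inpp5k (-0.0562 without WT 1, -0.15 without lot batch 1), Tmem184b (-0.11 for 1 of its features, -0.032 without lot batch 3) and Aldoc (0.19 without lot batch 4); the cause was not tested. Signal over background is not given in the values used here.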
